A study of Mus musculus with 9 samples.

Results

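T-cell receptors of cervical lymph nodes were compared with those of inguinal lymph nodes, inside wild-type (WT) and inside 5xFAD mice. The cervical site joined the deep (dCLN) and superficial (sCLN) cervical libraries, and the inguinal site was the iLN library of the same genotype. A barcode entered as a cell where 1 TRB chain, and no more, was paired with 1 or 2 TRA chains, all productive. This gave 7418 cervical and 2839 inguinal cells, 10257 of the 23051 such cells in the 9 libraries of the series, a total that counts the cells common to its CD4-titled pair in each of them. The groups were dCLN WT, sCLN WT, iLN WT, dCLN 5xFAD, sCLN 5xFAD and iLN 5xFAD, with 1 library each, all from females of 10 to 11 months. 5xFAD is a transgenic mouse model of Alzheimer's disease whose transgenes are driven by the neuronal Thy1 promoter, and the labels name no treatment. Cells from separate tubes were marked with hashtag antibodies and combined before loading, and the number of animals per library and whether nodes came from the same animals are not given in the sources used here. P-values below therefore measure the spread between libraries, with dCLN and sCLN standing as replicates of the cervical site. The edgeR p-values draw that spread partly from all features together. The node labels could not be checked against marker genes, because only receptor contigs were analysed.

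An alpha-beta T cell builds its TRB chain from a V, a D and a J gene and its TRA chain from a V and a J gene, and trims and adds bases where they meet. The join, called the junction, runs from a conserved cysteine codon of the V gene to a conserved phenylalanine or tryptophan codon of the J gene and makes most of the contact with the peptide. TRBD1 lies upstream of the TRBJ1 genes and TRBD2 between them and the TRBJ2 genes, so that TRBJ1 genes join TRBD1 while TRBJ2 genes can join either. Cervical nodes collect lymph from the head, the deep ones also from the meninges and brain, and inguinal nodes from the flank and hind limb.

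The libraries held 3458 to 8425 productive contigs and 1123 to 2742 cells used. These cells carried 1173 clonotypes in dCLN WT, 1086 in sCLN WT, 1662 in iLN WT, 2726 in dCLN 5xFAD, 2284 in sCLN 5xFAD and 1142 in iLN 5xFAD. A clonotype was a distinct set of V and J genes and junction nucleotides of both chains, and it was the unit counted below, so that an expanded clone weighed as 1. The share of barcodes with both chains was lowest in iLN 5xFAD, at 43.1%, against 52.5% to 66.6% in the other libraries. Contigs longer than 600 nucleotides made up 5.00% of iLN WT against 3.84% and 2.05% in dCLN and sCLN WT, and 1.53% of iLN 5xFAD against 4.095% and 6.53% in dCLN and sCLN 5xFAD. The iLN library thus had the largest share of long contigs in WT and the smallest in 5xFAD. Libraries shared 3 to 26 barcodes per pair, and 0 combinations of barcode and junction. No TRG, TRD or immunoglobulin contig was listed (0 contigs).

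The J genes of the TRB locus are shown because the 1 feature that passed the test was among them. TRBJ1-2 and TRBJ1-1 are neighbours in the J1 cluster and begin with the same bases, and TRBJ2-4 is the only TRBJ gene that was higher in every comparison of a cervical with an iLN library of its genotype. Germline sequences are from the GENCODE annotation of GRCm38, and capitals mark the part that enters the junction.
TRBJ1-2: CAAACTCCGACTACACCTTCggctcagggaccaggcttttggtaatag
TRBJ1-1: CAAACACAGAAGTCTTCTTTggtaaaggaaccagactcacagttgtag
TRBJ2-4: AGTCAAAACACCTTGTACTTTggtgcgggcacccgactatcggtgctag
TRBJ1-2 lies at chr6:41534001-41534048, TRBJ1-1 at chr6:41533864-41533911 and TRBJ2-4 at chr6:41543362-41543410, all on the plus strand and each a J gene segment. TRBJ1-2 is 48 nucleotides long and gives up to 20 of them to the junction.

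TRBJ1-2 was used less in cervical than in inguinal clonotypes, in both genotypes and in both cervical nodes. It made up 4.35% of dCLN WT clonotypes (51 of 1173), 3.68% of sCLN WT (40 of 1086), 4.44% of dCLN 5xFAD (121 of 2726) and 4.86% of sCLN 5xFAD (111 of 2284). In iLN it made up 7.10% in WT (118 of 1662) and 6.74% in 5xFAD (77 of 1142). All 4 cervical libraries lay below both iLN libraries, with means of 4.33% ± 0.49 (SD, n = 4) and 6.92% ± 0.25 (SD, n = 2). The log2 fold change of cervical over iLN was -0.67 (standard error, SE, 0.15; edgeR with Benjamini-Hochberg adjusted p = 0.00316). By an exact permutation test of the share within genotype, the two-sided p was 0.111, the smallest that 9 arrangements allow. Within WT the log2 ratio of the pooled cervical share over the iLN share was -0.82 (95% counting interval -1.21 to -0.42), and within 5xFAD it was -0.55 (-0.92 to -0.18). The difference between these genotype values was 0.28 (SE 0.28; edgeR interaction, adjusted p = 0.82). TRBJ1-2 was the only 1 of the 94 features tested to pass the threshold, or 1.06%, and the only 1 whose counting interval lay on the same side of 0 in both genotypes, also 1.06%.

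The call on TRBJ1-2 did not hold in every setting. Its adjusted p passed the threshold in 12 of 23 alternative settings, and its fold change was negative in 23 of 23. Without dCLN 5xFAD it was -0.66 (edgeR adjusted p = 0.0795), without sCLN WT -0.61 (adjusted p = 0.34) and without iLN WT -0.54 (adjusted p = 0.11). With DESeq2 it was -0.69 (Benjamini-Hochberg adjusted p = 0.43), and with UMIs in place of clonotypes -0.73 (edgeR adjusted p = 0.27).

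**Figure D1:**
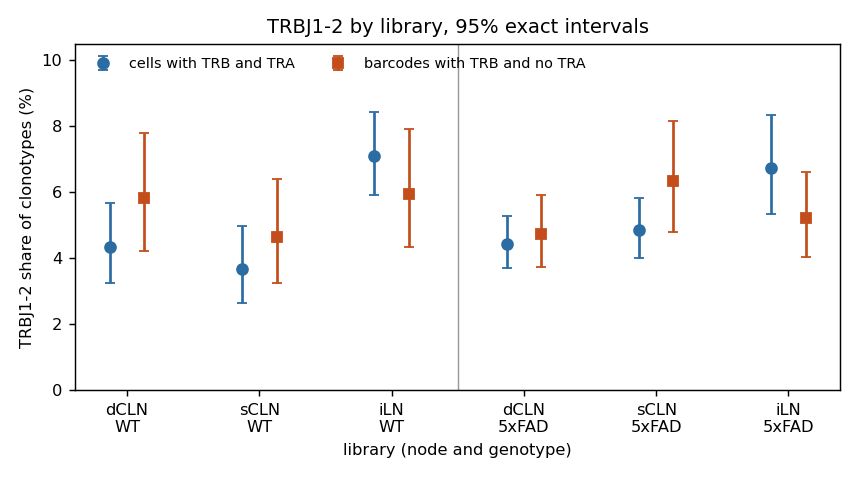
Share of clonotypes that use TRBJ1-2 (y axis, percent) in each of the 6 libraries (x axis), for cells with both chains (circles) and for barcodes with a TRB and no TRA chain (squares), with exact 95% intervals. Among cells with both chains, 7.10% and 6.74% in iLN stand above the 4 cervical values of 3.68% to 4.86%, while among barcodes without a TRA chain the sites overlap.

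The difference was measured in cells with both chains and was not detected in barcodes that had a TRB chain alone. In the latter the TRBJ1-2 share of WT clonotypes was 5.83% (dCLN), 4.65% (sCLN) and 5.94% (iLN). The 5xFAD shares were 4.75% (dCLN), 6.34% (sCLN) and 5.22% (iLN). The sites overlapped there, and the log2 fold change was -0.05 (SE 0.21; edgeR adjusted p = 0.99, 33 TRB features). With all productive chains together it was -0.38 (edgeR adjusted p = 0.94), although all 4 cervical values, 4.27% to 5.34%, still lay below both iLN values, 6.85% and 5.94%. The log2 ratio of the share in cells with both chains over that in TRB-only barcodes was negative in the cervical libraries, at -0.42, -0.34, -0.10 and -0.38 in dCLN WT, sCLN WT, dCLN 5xFAD and sCLN 5xFAD, and positive in iLN, at 0.26 in WT and 0.37 in 5xFAD. These values did not overlap between the sites (exact permutation test within genotype, two-sided p = 0.111, the smallest that 9 arrangements allow). Their numerator is the share by which TRBJ1-2 was called, so this order and the fit that follows restate part of that call. In 1 fit over both kinds of barcode, the site difference of TRBJ1-2 was lower by 0.59 log2 units in cells with both chains (SE 0.18; edgeR unadjusted p = 0.00665, adjusted p = 0.22). Of the 33 TRB features so compared 0 were called, and for 5, or 15.2%, the unadjusted p was under 0.05. These were TRBJ1-2, TRBJ2-4, TRBV31, TRBV1 and TRBV20, with differences of -0.59, 0.42, 0.36, -0.34 and -0.62. Barcodes without a TRA chain numbered 747 to 1615 per library, and their median UMI count per TRB chain was 7 to 10, against 8 to 10 in cells with both chains. How the recovery of TRA chains bears on the difference was not tested.

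Among the 6 genes of the J1 cluster only TRBJ1-2 had a lower share in all 4 comparisons of a cervical with the iLN library of its genotype. TRBJ1-4 was lower in 3 and level in the fourth, at 6.39% in sCLN and iLN 5xFAD. As a share of TRBJ1 clonotypes alone, TRBJ1-2 stood at 12.6% (dCLN), 11.7% (sCLN) and 19.4% (iLN) in WT. The same shares in 5xFAD were 14.3% in dCLN, 14.9% in sCLN and 20.98% in iLN. The other TRBJ1 genes together were not ordered by site, at 30.1%, 27.9% and 29.5% of all clonotypes in dCLN, sCLN and iLN WT and at 26.6%, 27.8% and 25.4% in 5xFAD. TRBJ1-1, the upstream neighbour shown above, had a log2 fold change of 0.15, TRBJ1-3 of 0.01, TRBJ1-4 of -0.18, TRBJ1-5 of 0.23 and TRBJ1-6 of -0.03 (edgeR adjusted p of 0.90 to 0.99). Shares within a class of genes sum to 100%, so that a lower share of 1 gene goes with higher shares of others. Of the 6 TRBJ2 genes, 5 were positive and 1 negative, from -0.10 to 0.18, and 0 passed.

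The lower cervical use of TRBJ1-2 was spread over V genes. Of 12 TRBV genes with at least 15 TRBJ1-2 clonotypes, the TRBJ1-2 share was higher in iLN in both genotypes for 9 and in 1 genotype for 3, namely TRBV12-1, TRBV3 and TRBV5. These are the clonotypes by which TRBJ1-2 was called, so the counts restate part of that call and carry no test. Some shares rest on few clonotypes, as with TRBV3 at 2 of 66 in iLN WT and 2 of 42 in iLN 5xFAD. With TRBV13-2, TRBJ1-2 was carried by 3.54% of cervical and 8.07% of iLN clonotypes in WT (9 of 254 and 18 of 223), and by 3.85% and 7.69% in 5xFAD (21 of 546 and 10 of 130). With TRBV31 these shares were 5.24% and 10.8% in WT and 5.02% and 8.11% in 5xFAD. With TRBV12-1 they were 11.8% and 17.9% in WT but 17.7% and 13.04% in 5xFAD, the latter from 3 of 23 iLN clonotypes.

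**Figure D2:**
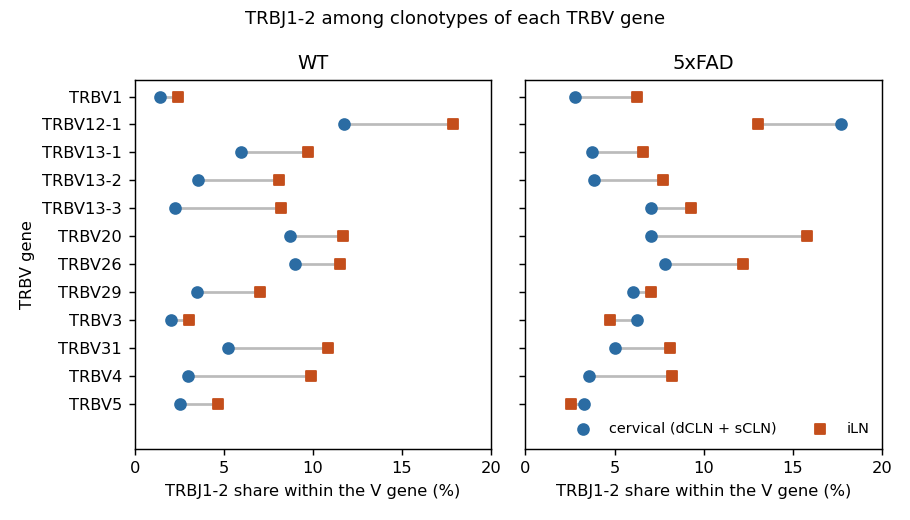
Percent of the clonotypes of each TRBV gene that use TRBJ1-2 (x axis), in the cervical libraries pooled (circles) and in iLN (squares), for WT and 5xFAD. The iLN square lies to the right for 12 of 12 genes in WT and for 9 of 12 in 5xFAD.

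TRBJ1-2 junctions were diverse in both sites. They used 14 to 19 TRBV genes per library, and nearly every one had its own amino acid sequence, for example 116 of 118 in iLN WT and 119 of 121 in dCLN 5xFAD. TRBD1, the D gene upstream, made up 87.5% to 95.1% of their D calls. Their J end was trimmed by 1.59 to 2.01 bases on average, against 2.78 to 2.93 bases in other junctions. The mean net charge (lysine and arginine minus aspartate and glutamate residues) of TRBJ1-2 junctions, whose germline part carries an aspartate codon, was between -1.14 and -1.0, against -0.89 to -0.80 in the others. Their mean length was 13.5 to 13.8 amino acids, against 13.9 to 14.004 in the others. For TRBJ1-2 junctions these values overlapped between the sites, except the TRBD1 share, which was 92.9% and 95.1% in iLN against 87.5% to 92.1% in the cervical libraries. By the gene order given above TRBJ1 genes join TRBD1, so the remaining D calls cannot be read as TRBD2 use. The TRBD1 share is therefore not read as a site difference.

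Another 12 features took the same direction in both genotypes and both cervical nodes with a mean of at least 20 clonotypes per library, and none of these passed the test. In all, 16 of 94 features did so, or 17%, with 9 (9.57%) higher and 7 (7.45%) lower in the cervical nodes. Both comparisons of a genotype share its iLN library, so that 1 iLN library that stands apart by sampling alone gives them a common direction, and these counts are a description with no test. All 4 cervical libraries lay beyond both iLN libraries for 10 of 94, or 10.6%, above them for 7 (7.45%) and below them for 3 (3.19%). Features with under 20 clonotypes on average were TRAJ28, TRBV23 and TRAJ5, at log2 fold changes of 0.96, 0.63 and -0.34.

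Among J genes of the TRA locus, TRAJ30 had the largest positive value of the 12. TRAJ30, at chr14:54189866-54189924, made up 3.32%, 3.13%, 3.23% and 3.28% of clonotypes in dCLN WT, sCLN WT, dCLN 5xFAD and sCLN 5xFAD, against 2.65% and 2.19% in iLN WT and iLN 5xFAD. The cervical values lay close together and above both iLN values, and the log2 fold change was 0.42 (SE 0.23; edgeR unadjusted p = 0.0693, adjusted p = 0.90). TRAJ48, at chr14:54169808-54169868, made up 2.90%, 3.22%, 2.97% and 4.16% in the same cervical libraries and 2.53% and 2.71% in iLN, a log2 fold change of 0.33. TRAJ40, at chr14:54177921-54177981, was ordered the other way, at 2.90%, 3.31%, 3.89% and 3.59% against 3.91% and 4.55%, a log2 fold change of -0.31. TRAJ31 had a value of -0.28 and TRAJ52 of 0.21, with overlapping sites. None of these 4 passed (edgeR adjusted p of 0.90 to 0.96).

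V genes made up 6 of the 12. TRBV5, at chr6:41062332-41062803, made up 8.70%, 8.84%, 8.62% and 8.54% of clonotypes in dCLN WT, sCLN WT, dCLN 5xFAD and sCLN 5xFAD, and 7.76% and 6.83% in iLN. The 4 cervical values spanned less than the gap to iLN, and the log2 fold change was 0.25 (SE 0.13; edgeR unadjusted p = 0.0556, adjusted p = 0.90). TRAV13 stood at 12.4%, 12.7%, 14.7% and 13.7% against 13.1% in iLN WT and 18.04% in iLN 5xFAD, a log2 fold change of -0.21 (edgeR unadjusted p = 0.0509, adjusted p = 0.90). Its counting interval included 0 in WT (-0.32 to 0.19) and lay below 0 in 5xFAD (-0.57 to -0.12). TRAV10 had a value of 0.32, TRAV8 of 0.08, TRBV13-2 of -0.16 and TRBV1 of -0.16. TRBJ2-4, shown above, stood at 9.21%, 8.29%, 8.62% and 8.76% against 7.64% and 7.79%, a log2 fold change of 0.18. In barcodes with a TRB and no TRA chain it stood at 9.31%, 7.05%, 8.42% and 6.80% against 9.12% and 9.70%. There only dCLN WT lay above the iLN library of its genotype.

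**Figure D3:**
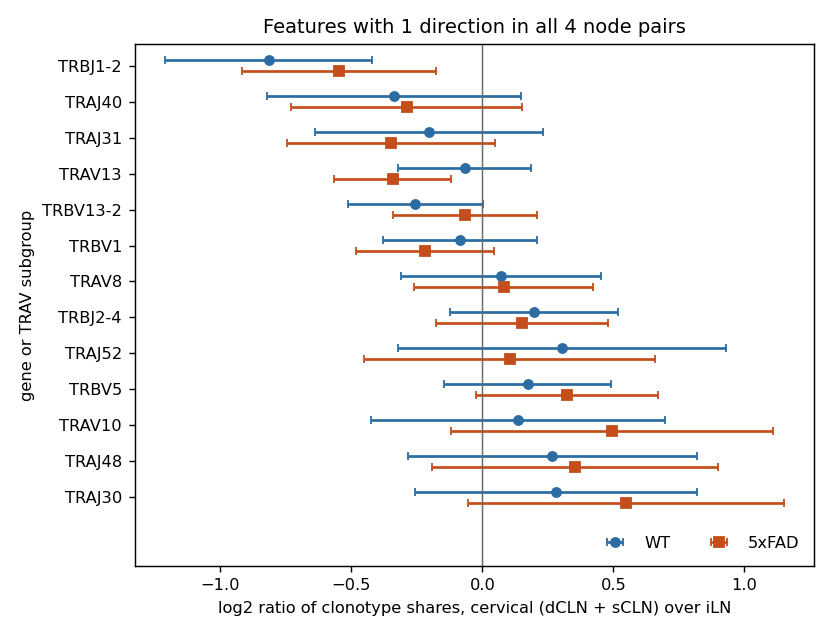
Log2 ratio of clonotype shares, pooled cervical over iLN (x axis), with 95% counting intervals, for the 13 features of 1 direction in all node comparisons and a mean of at least 20 clonotypes (y axis), in WT (circles) and 5xFAD (squares). Both intervals exclude 0 for TRBJ1-2, and 1 of the others, that of TRAV13 in 5xFAD, does so.

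The gene lists gave no further call. Across all 94 features the median log2 fold change was 0.01, with 50 positive and 44 negative. Of 13 TRAJ genes numbered 2 to 20, the ones farthest from the V genes, 3 were positive and 10 negative, with a median of -0.10 and 0 calls. The 14 TRAJ genes numbered 40 or above had 8 positive and 6 negative values with a median of 0.02, and the 15 numbered 21 to 39 had 10 and 5 with a median of 0.09. TRAV4 and TRAV14, subgroups favoured by CD4 T cells, together made up 17.8%, 16.3% and 15.7% of dCLN, sCLN and iLN WT clonotypes and 14.2%, 12.8% and 11.997% of the same nodes in 5xFAD, so that both cervical nodes lay above iLN in each genotype (exact permutation test, two-sided p = 0.222, adjusted p = 0.74 over 31 measures). Only the sum had this order, and each subgroup alone was higher in 3 of 4 comparisons. TRAV14 made up 8.29% of sCLN WT against 9.39% of iLN WT, and TRAV4 3.81% of sCLN 5xFAD against 5.52% of iLN 5xFAD. The summed share of superantigen-reactive TRBV12, TRBV15 and TRBV16 was 8.98% ± 0.56 in the cervical (SD, n = 4) and 8.46% ± 0.20 in the iLN libraries (SD, n = 2). TRAV17 to TRAV21, single-copy subgroups next to the J genes, summed to 2.77% ± 0.23 and 2.98% ± 0.13. The TRBV1 to TRBV5, TRBV12 and TRBV13, and TRBV14 to TRBV31 blocks each had 0 calls, with medians of 0.01, -0.13 and 0.10. The TRBJ1 cluster as a whole stood at 32.5% ± 1.49 and 34.4% ± 3.19.

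Some V genes were ordered by site in opposite ways in the WT and the 5xFAD libraries. The interaction of site and genotype was called for 3 of 94 features, or 3.19%, and 10 of 94, or 10.6%, reached an unadjusted p under 0.05. Each genotype has 1 iLN library, so that the spread behind this test comes from dCLN against sCLN within genotype, and a difference between genotypes cannot be told apart from one between these 2 iLN libraries. Counting intervals excluded 0 for 6 features in WT (6.38%) and 13 in 5xFAD (13.8%), and lay on opposite sides of 0 for 2 (2.13%), TRBV2 and TRAV9. TRBV2, at chr6:41047340-41047995, made up 1.71%, 1.29% and 3.31% of dCLN, sCLN and iLN WT clonotypes and 1.54%, 3.11% and 0.53% of the same nodes in 5xFAD. Its log2 ratio of cervical over iLN was -1.13 in WT (95% counting interval -1.74 to -0.52) and 1.99 in 5xFAD (0.85 to 3.13), and the difference was 3.24 (SE 0.67; edgeR adjusted p = 0.000253). TRAV9, a subgroup favoured by CD8 T cells, had ratios of -1.17 in WT (-1.89 to -0.44) and 1.94 in 5xFAD (0.56 to 3.31), a difference of 3.26 (SE 0.83; edgeR adjusted p = 0.00562). TRBV13-1, at chr6:41116007-41116468, had ratios of 0.25 and -0.50, a difference of -0.75 (SE 0.22; edgeR adjusted p = 0.022). These genes therefore had no common direction, with site fold changes of 0.01, -0.06 and -0.13 over both genotypes. The iLN 5xFAD value of TRBV2 came from 6 clonotypes and that of TRAV9 from 4. TRBV2 and TRAV9 were rarely carried together, with both in 1 clonotype of dCLN WT, 1 of sCLN WT and 0 of the other libraries.

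**Figure D4:**
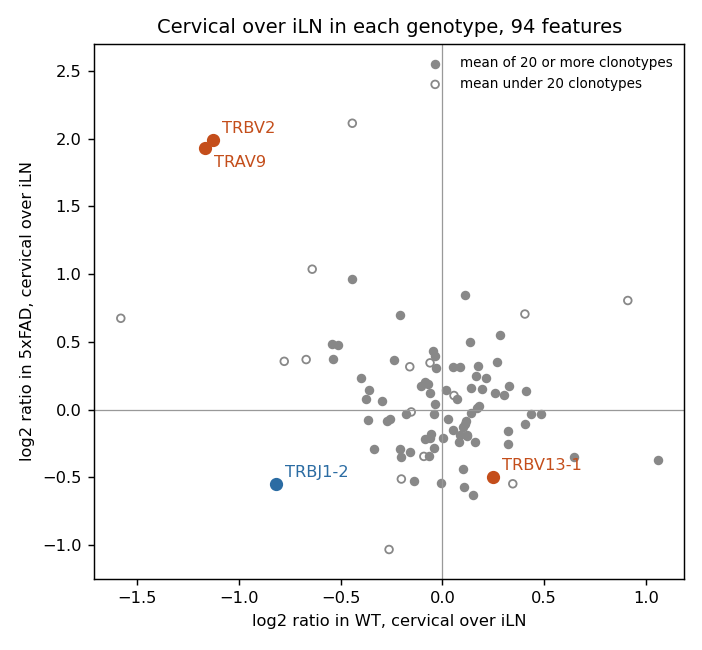
Log2 ratio of clonotype shares, pooled cervical over iLN, in WT (x axis) against 5xFAD (y axis) for 94 V and J features, open circles marking a mean under 20 clonotypes per library. TRBJ1-2 lies at -0.82 and -0.55, while TRBV2, TRAV9 and TRBV13-1, which passed the interaction test, lie in the quadrants of opposite sign.

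The 3 genes with opposite directions moved with the share of long contigs, and equally with that of barcodes with both chains. Ordered from the fewest to the most contigs above 600 nucleotides, the libraries were iLN 5xFAD, sCLN WT, dCLN WT, dCLN 5xFAD, iLN WT and sCLN 5xFAD. The share of barcodes with both chains gave the same order, at 43.1%, 52.5%, 56.9%, 58.2%, 63.4% and 66.6%. These library properties therefore cannot be told apart here. In that order TRBV13-1 made up 10.6%, 9.94%, 9.29%, 8.33%, 8.06% and 6.57% of clonotypes, a steady fall. TRBV2 made up 0.53%, 1.29%, 1.71%, 1.54%, 3.31% and 3.11%, and TRAV9 0.35%, 0.83%, 1.28%, 1.03%, 2.41% and 2.06%, so that both were highest in the libraries with the most long contigs. The share of long contigs was taken over all productive contigs, those of these genes included. It is therefore not independent of the gene shares set against it. TRB contigs with TRBV2 had a median of 563 to 573 nucleotides in 5 libraries and 520 in iLN 5xFAD, and those with TRBV13-1 of 512 to 514, against 522 to 542.5 for TRB contigs without the gene. TRBV2 chains had a median of 3 to 5.5 UMIs, against 8 to 10 for other TRB chains. TRAV9 stood less apart, with TRA contigs of 540.5 to 556 nucleotides at the median against 529.5 to 543 for other TRA contigs. They were the longer ones in each library, and TRAV9 chains had a median of 3.5 to 5 UMIs against 5 to 6. TRBJ1-2 was lower in the cervical nodes in WT, where iLN had the most long contigs, and in 5xFAD, where iLN had the fewest. Its contigs were 3 to 8 nucleotides shorter at the median than other TRB contigs. The part of contig length or of chain pairing in the interaction calls and in the TRBJ1-2 call was not tested.

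**Figure D5:**
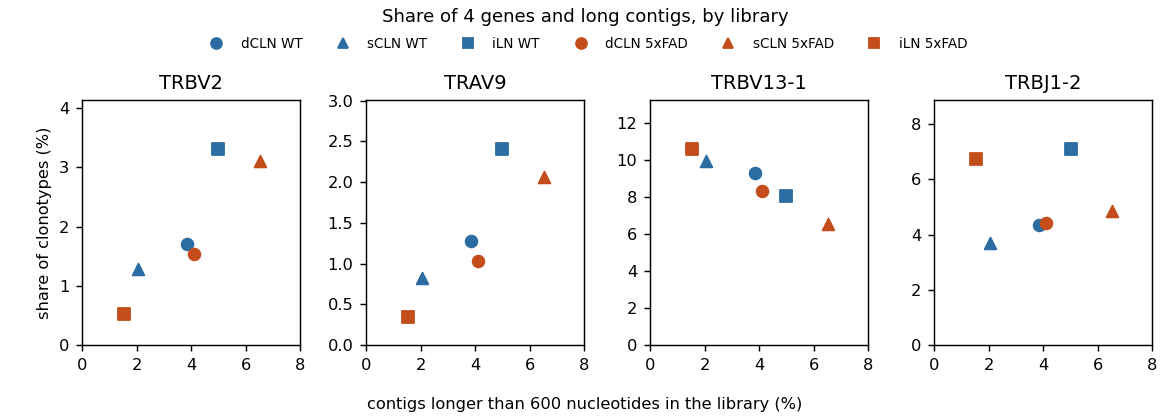
Share of clonotypes (y axes, percent) of TRBV2, TRAV9, TRBV13-1 and TRBJ1-2 against the percent of contigs longer than 600 nucleotides in the library (x axes), 1 point per library, with colour for genotype and shape for node. TRBV13-1 falls from 10.6% to 6.57% along the axis, TRBV2 and TRAV9 are highest at 5.00% and 6.53% long contigs, and TRBJ1-2 is highest in iLN at both 1.53% and 5.00%. The share of barcodes with both chains orders the libraries in the same way as the x axis.

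TRBV3, the only other feature with an unadjusted p under 0.05 for site, was not uniform over the nodes. It made up 5.12% of dCLN WT, 3.41% of sCLN WT and 3.97% of iLN WT clonotypes, and 5.98%, 7.53% and 3.68% in 5xFAD. Its log2 fold change was 0.49 (SE 0.18; edgeR unadjusted p = 0.00715, adjusted p = 0.34). TRB contigs with TRBV3 were among the long ones, with medians of 589 to 599 nucleotides.

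Junctions of the 2 sites differed in mean length and in added bases by less than the SD between the cervical libraries. The mean TRB junction length was 13.92 amino acids ± 0.05 in the cervical (SD, n = 4) and 13.90 ± 0.05 in the iLN libraries (SD, n = 2), and the mean TRA length was 13.49 ± 0.06 and 13.46 ± 0.02. TRB junctions with a D gene call had 3.44 ± 0.13 and 3.48 ± 0.01 added bases, and 7.35% ± 0.53 and 7.63% ± 0.75 of them had none. Of the 31 junction measures, list shares and the clone share, 6, or 19.4%, took the same direction in both genotypes and both cervical nodes, and 3, or 9.68%, did not overlap between the sites. These comparisons also share the iLN library of each genotype, and the counts are a description with no test. No measure could pass the threshold with the exact permutation test within genotype, whose smallest two-sided p is 0.111 (adjusted p of 0.74 or more over 31 measures).

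The 5 junction measures among these 6 were all of the TRB chain and are given as values. TRBD2 made up 40.6%, 41.6% and 38.3% of D calls in dCLN, sCLN and iLN WT and 43.0%, 42.8% and 41.4% in 5xFAD. Among TRBJ2 junctions alone, which can use either D gene, TRBD2 made up 56.7%, 55.0% and 53.2% in WT and 56.3%, 56.3% and 55.2% in 5xFAD. The net charge of TRB junctions was less negative in the cervical libraries, at -0.82, -0.85, -0.87 and -0.81 in dCLN WT, sCLN WT, dCLN 5xFAD and sCLN 5xFAD against -0.87 and -0.90 in iLN WT and 5xFAD. Their mean hydropathy on the Kyte-Doolittle scale, where higher is more hydrophobic, was -1.31 ± 0.02 and -1.35 ± 0.02. The J end of TRB junctions was trimmed by 2.79 ± 0.03 and 2.83 ± 0.01 bases. TRBJ2 junctions hold no TRBJ1-2 clonotype, and the other 4 measures kept their direction in 4 of 4 comparisons when those clonotypes were left out. Without them the site difference in TRBD2 among D calls went from 2.15 to 1.11 percentage points, that in net charge from 0.05 to 0.04, and that in J trimming from -0.04 to -0.08 bases. Net charge then overlapped between the sites, at -0.863 in dCLN 5xFAD and -0.855 in iLN WT. By length class, TRB junctions of 13 amino acids were less frequent and those of 14 more frequent in both cervical nodes of each genotype, as were TRA junctions of 13 amino acids less frequent, 3 of 14 classes above 1% of clonotypes, or 21.4%. TRB junctions of 14 amino acids made up 31.5% and 31.5% of dCLN and sCLN WT clonotypes against 30.02% in iLN WT, and 29.5% and 30.2% against 27.4% in 5xFAD.

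Distances from a cervical node to iLN were close to those between the cervical nodes. With each library thinned to 1086 clonotypes (200 draws), the median absolute log2 ratio over features in WT was 0.25 between dCLN and iLN, 0.24 between sCLN and iLN and 0.24 between dCLN and sCLN. In 5xFAD it was 0.28, 0.32 and 0.26. Between the genotypes it was 0.28 in dCLN, 0.30 in sCLN and 0.33 in iLN. These values include the counting error of the thinned libraries and carry no test.

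Clones present in both sites were few. By the nucleotides of both chains, 10 clonotypes were found in a cervical and in the iLN library of WT and 2 in those of 5xFAD. Relative to the 1662 iLN clonotypes in WT this was 0.60% (exact Clopper-Pearson 95% interval 0.29 to 1.10), and relative to the 1142 in 5xFAD 0.175% (0.021 to 0.63). Per 1000000 pairs of clonotypes compared, the rates were 2.66 in WT (exact Poisson 95% interval 1.28 to 4.898) and 0.35 in 5xFAD (0.042 to 1.26). The 2 cervical nodes shared clones with each other at a rate of 2.36 in WT (3 clonotypes, 0.49 to 6.88) and 0 in 5xFAD, which allows up to 0.48. The WT rate between the sites thus lay inside the interval of the rate within the cervical site. A cervical library and the iLN library of the other genotype shared 0 clonotypes, which allows up to 0.275. In WT, sCLN and iLN shared 8 and dCLN and iLN shared 2, and in 5xFAD each cervical node shared 1 with iLN. Without sCLN WT the WT count was 2. Intervals and limits cover counting error only.

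The 12 shared clones used 8 TRBV genes and 7 TRAV subgroups, and most were single cells in each node. They held 30 cells with 30 distinct barcodes, and 9 of the 12 held 1 cell in each site. Of the 10 in WT, 3 had at least 2 cells in a library, against 2.87% of all WT clonotypes (112 of 3908). Of the 2 in 5xFAD, 0 did, against 1.09% (67 of 6150). A clone with more cells is more likely to be seen in 2 libraries, so these shares are not read as a link between clone size and sharing. Of the 12, 4 are shown, with bases outside the V, D and J alignments in capitals. They are the 3 with more than 2 cells and the 1 that used TRBJ1-2. The fifth shown is, of the 3 clones shared by dCLN and sCLN WT, the only 1 with more than 2 cells. The first was found in 3 sCLN WT and 2 iLN WT cells, the second in 3 dCLN WT and 1 iLN WT cells, the third in 1 sCLN WT and 2 iLN WT cells, the fourth in 1 sCLN WT and 1 iLN WT cell, and the fifth in 1 dCLN WT and 2 sCLN WT cells.
TRBV29 TRBJ1-4: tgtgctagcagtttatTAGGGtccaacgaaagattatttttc
TRBV26 TRBJ1-1: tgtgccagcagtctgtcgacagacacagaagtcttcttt
TRBV16 TRBJ2-7: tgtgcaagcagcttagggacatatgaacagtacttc
TRBV13-3 TRBJ1-2: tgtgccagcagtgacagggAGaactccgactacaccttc
TRBV13-1 TRBJ2-7: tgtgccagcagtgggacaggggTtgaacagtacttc
Over the 12, the TRB junction held 0 to 13 bases outside the V, D and J alignments, 3 held none, and none of the 12 TRB junctions was seen in any other cell. A D gene was called for 9 of the 12. Without a call, as in the TRBV1 clone with 13, every base between V and J was counted, so these numbers are not those of the added bases above. The TRA junction held no added base in 4, and 4 TRA junctions recurred in cells with other TRB chains.

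The first of these clones paired TRBV29 with TRAV10D and TRAJ16, the second TRBV26 with TRAV6-6 and TRAJ31, and the third TRBV16 with TRAV16 and TRAJ53. The remaining WT clones between sCLN and iLN used TRBV1 with TRAV13-1 and TRAJ17, TRBV13-2 with TRAV6D-4 and TRAJ31, TRBV13-3 with TRAV13D-2 and TRAJ37, TRBV29 with TRAV6D-7 and TRAJ48, and TRBV3 with TRAV14D-3/DV8 and TRAJ16. The second clone between dCLN and iLN used TRBV16 with TRAV6-6 and TRAJ30. In 5xFAD the clone of dCLN and iLN used TRBV26 with TRAV13-4/DV7 and TRAJ12, and that of sCLN and iLN used TRBV31 with TRAV8D-2 and TRAJ17.

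The clones with TRBJ1-2 and with TRBV13-1 carried the TRA chains of innate-like T cells. The former paired TRBV13-3 with TRAV1 and TRAJ33, the chain of mucosal-associated invariant T (MAIT) cells, which recognise vitamin B2 metabolites. The latter paired TRBV13-1 with TRAV11 and TRAJ18, the chain of invariant natural killer T (iNKT) cells, which recognise glycolipids. Their TRA junctions are shown because they are near-invariant.
MAIT TRA: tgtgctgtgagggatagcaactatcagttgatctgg
iNKT TRA: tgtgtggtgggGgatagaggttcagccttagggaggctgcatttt
The MAIT junction had no added base and was seen in 14 other cells, and the iNKT junction had 1 and was seen in 4 others. TRAV1 with TRAJ33 was carried by 5, 4 and 5 cells in dCLN, sCLN and iLN WT and by 5, 2 and 6 in 5xFAD, or 0.086% to 0.52% of cells. The exact 95% interval of the iLN 5xFAD share, 0.52%, was 0.19 to 1.13, and that of dCLN 5xFAD, 0.18%, was 0.059 to 0.43, so that the sites overlapped. TRAV11 with TRAJ18 was carried by 3, 6 and 5 cells in the WT nodes, or 0.24%, 0.53% and 0.30%. In 5xFAD it was carried by 0 of 2742 dCLN cells, which allows up to 0.11%, by 2 of 2326 sCLN cells with differing junctions, and by 0 of 1151 iLN cells, which allows up to 0.26%.

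Clone size was not ordered by site. After thinning to 1123 cells, 7.91%, 6.50% and 2.06% of cells in dCLN, sCLN and iLN WT belonged to clones of 2 or more cells, and 0.46%, 1.69% and 1.52% in 5xFAD. Both cervical nodes thus lay above iLN in WT, while in 5xFAD dCLN lay below and sCLN above it (exact permutation test, two-sided p = 0.222, adjusted p = 0.74).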

How the data were processed

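The 6 libraries from lymph nodes of WT and 5xFAD mice were made with a 10x Genomics immune profiling kit from cells of above 87% viability. The submitters' processing notes name Cell Ranger 6.0.1, Seurat 4.1.0 and mm10, with no role given. Gene calls are IgBLAST's, per the file headers. The deposited counts are UMIs and reads per contig, the deposited fraction is the V or J identity, and other deposited values are junction lengths and positions in nucleotides, per the file headers.

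The TRA chain with more UMIs was kept in cells with 2, and barcodes with more chains (1.45% to 3.99%) were set aside as possible doublets, with no other doublet caller. TRAV genes were summed by subgroup, because 21.2% to 22.4% of TRAV calls in the WT and 5.65% to 6.19% in the 5xFAD libraries named several genes. TRA chains with full V identity made up 73.2% to 75.0% in the WT and 65.2% to 66.8% in the 5xFAD libraries. How this split bears on TRAV comparisons between genotypes was not tested. Clonotypes per feature were tested with edgeR 4.0.16 (R 4.3.3), with genotype and site as terms and total clonotypes as offset, for 94 of 96 features with at least 10 clonotypes, with a threshold of 0.05. Log2 ratios within a genotype used a pseudocount of 0.5. Single values per library were compared by an exact permutation of sites within genotype (scipy 1.17.1). Intervals of shares are exact (Clopper-Pearson), and 3 counts set the limit for a count of 0.

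Named features were those past the threshold, then those with 1 direction in 4 of 4 comparisons and a mean of at least 20 clonotypes. TRBV3, contig lengths and the genes of the interaction were chosen after their values were seen. The members and lists were chosen with earlier results of these data known. Alternatives covered the counted unit, scaling, DESeq2 1.42.0, filters, model terms, chains and each library. CD4-titled and mixed libraries were not used.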

Additional observations from a re-analysis of the deposited data

Results flagged for a closer look

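The site difference of 3 genes differed between the genotypes by the edgeR interaction test, which rests on 1 iLN library per genotype and takes its spread from dCLN against sCLN. As 5xFAD minus WT on the log2 scale it was 3.24 for TRBV2, 3.26 for TRAV9 and -0.75 for TRBV13-1. In 5xFAD these genes rested on 6, 4 and 121 iLN clonotypes, and their shares moved with the share of contigs above 600 nucleotides, from 1.53% in iLN 5xFAD to 6.53% in sCLN 5xFAD. The share of barcodes with both chains had the same order of libraries, from 43.1% in iLN 5xFAD to 66.6% in sCLN 5xFAD. The part of contig length or of chain pairing was not tested.

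The summed share of TRBV12, TRBV15 and TRBV16 stood apart in 1 of the 4 cervical libraries. It was 8.14% in dCLN 5xFAD, against 9.38% (dCLN WT), 9.21% (sCLN WT) and 9.19% (sCLN 5xFAD), and the 2 iLN libraries had 8.60% and 8.32%. Chance alone marks about 1 in 20 such groups of 4, and 45 were examined.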

How the results depend on the processing

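The number of features past the threshold for site, 1 in the reported fit, fell to 0 of 95 with UMIs counted, 0 of 94 with DESeq2 (own size factors or total clonotypes; 1 and 2 at an unadjusted p under 0.05), 0 without the genotype term, 0 with dCLN or with sCLN alone against iLN, 0 with all productive chains and 0 of 33 in barcodes without TRA (1 to 3 at an unadjusted p under 0.05 with edgeR). Leaving out 1 library gave 0 to 4 calls. The 4 calls, without iLN WT, were TRBV2, TRBV3, TRAV5 and TRBV13-1, so that TRBJ1-2 was not among them. The interaction had 2 calls with cells, without TRBV13-1 (edgeR adjusted p = 0.066), 3 with TMM scaling or at least 2 UMIs and 7 with all productive chains, alternatives chosen after seeing the data. Features of 1 direction numbered 15 to 19. Clones in both sites numbered 10 to 13 in WT and 2 to 5 in 5xFAD over clone definitions, with 5 in 5xFAD by TRB nucleotides alone, where 16 were also shared with the other genotype, and 2 to 10 and 1 to 2 with 1 library left out. Over the alternatives TRBJ2-4, TRBV1 and TRBV13-2 changed sign in 1 setting each, and the other 10 named features and TRBV3 in none. The cause of these changes was not tested. No paired analysis was possible because each group holds 1 library and the sources used here do not say which libraries share animals, beyond the genotype term or stratum of the reported tests. Depth limits rare features: a library of 1142 clonotypes with 6 of a gene carries an interval spanning several fold.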
